A study of Mus musculus with 32 samples.

Results

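The 32 genes described here encode enzymes of cholesterol synthesis and proteins that move, store or export cholesterol, and their RNA was measured in mouse brown adipose tissue. The members were a given list of gene names, and every probe that carried one of these names in the scanner files and also stood in the deposited table was taken. That gave 59 probes for 31 genes, of 24523 gene names with a kept probe in all. Synthesis was covered by 17 genes (35 probes) and transport, storage and export by 14 genes (24 probes). Acat2, an acetyl-CoA acetyltransferase at the head of the pathway, was not analysed here because no probe carried that name. A gene is given by its brightest kept probe unless another is named, and 20 of the 31 genes had several probes. In total, 65 probes on the array carried a member's name, and the other 6 did not pass the filter on dim spots.

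The 32 samples formed 4 groups of 8 male C57BL6/J mice. One line was total ChREBP KO, which lacks both ChREBPα and ChREBPβ (Mlxipl-null), compared with its WT littermates. The other was ChREBPβ KO, made by CRISPR/Cas9 removal of exon 1b of Mlxipl, compared with its own WT littermates. Both deletions are carried by the whole animal, not by brown fat alone. All mice of all 4 groups ate a regular diet, were fasted for 24 h and then refed for 18 h with food and water holding 20% glucose. The labels name no age. Each sample was hybridised to 1 Agilent 1-colour array, and values are log2 intensities after quantile normalisation. Values of different probes are not comparable with each other, because probes differ in brightness.

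Cholesterol is built from acetyl-CoA by way of mevalonate, isopentenyl diphosphate, farnesyl diphosphate, squalene and lanosterol. The genes of this route are classical targets of SREBP-2, a factor that is processed when membrane sterol is low, whereas the export pumps and Mylip, a ligase that removes lipoprotein receptors, are targets of the oxysterol receptors LXRα and LXRβ. ChREBP (carbohydrate response element binding protein, the product of Mlxipl) is a glucose-responsive factor best known for inducing fatty acid synthesis. In brown fat, which burns fuel for heat, RNA of its ChREBPβ isoform is induced by refeeding with glucose.

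Mlxipl itself was checked first. Its brightest probe read 15.98 to 16.33 in WT of the total line and 13.49 to 13.91 in total ChREBP KO, a change of -2.48 ± 0.07 (SE). In the β line it read 16.15 to 16.55 in WT and 14.68 to 14.99 in ChREBPβ KO, a change of -1.50 ± 0.07. On this probe KO arrays were below WT arrays in both lines without overlap. Of its 2 other probes, 1 fell by 0.77 in total ChREBP KO and by 1.14 in ChREBPβ KO, and the other differed by 0.14 and -0.08 and was not called in either line. All 7 markers of brown fat were measured, and their mean log2 level lay between 14.0 and 15.1 on every array. In total ChREBP KO 3 of the 7 were called higher, Dio2 (2.19), Ppargc1a (1.18) and Cox8b (0.41), and 2 lower, Elovl3 (-3.16) and Prdm16 (-0.29), on the log2 scale, whereas Ucp1 and Cidea were not called. In ChREBPβ KO 0 of the 7 were called. Markers of other tissues varied as well. Of 8 skeletal muscle and 8 liver markers, 0 were called in total ChREBP KO and 0 in ChREBPβ KO. The mean of 8 skeletal muscle markers ranged from 12.5 to 16.2 in the total line and from 5.49 to 11.9 in the β line, and the mean of 8 liver markers ranged from 6.15 to 12.9 and was uneven within groups. Macrophage markers, 6 of 7 listed, had a mean of 9.95 to 10.7 in WT of the total line and 9.51 to 9.88 in total ChREBP KO, and 5 of these 6 were called lower there.

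Sequences just upstream of 5 synthesis genes are shown because 4 of them (Sc5d, Mvd, Cyp51 and Idi1) were among the genes that fell in total ChREBP KO, and the fifth, Hmgcs1, was not called in the same pathway. Each is the 200 bases before the RefSeq transcript start, 5′ to 3′ on the gene's own strand, in GRCm38.p6. Capitals mark the letters of 3 short motifs: CCAAT, bound by NF-Y (ATTGG on the other strand), the E-box CACGTG, and the core of a sterol regulatory element, TCACNCCAC. Sc5d lies upstream of its start at chr9:42264301-42264500 on the minus strand, Mvd at chr8:122443423-122443622 (minus), Cyp51 at chr5:4104698-4104897 (minus), Idi1 at chr13:8885406-8885605 (plus) and Hmgcs1 at chr13:119690151-119690350 (plus).
Sc5d: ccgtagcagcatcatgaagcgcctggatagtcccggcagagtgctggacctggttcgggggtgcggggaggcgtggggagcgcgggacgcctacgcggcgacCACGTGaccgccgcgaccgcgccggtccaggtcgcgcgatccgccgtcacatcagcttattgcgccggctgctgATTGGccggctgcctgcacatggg
Mvd: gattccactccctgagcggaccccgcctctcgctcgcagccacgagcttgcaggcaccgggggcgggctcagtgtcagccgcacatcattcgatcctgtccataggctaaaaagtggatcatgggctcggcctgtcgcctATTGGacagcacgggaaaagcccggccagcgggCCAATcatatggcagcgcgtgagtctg
Cyp51: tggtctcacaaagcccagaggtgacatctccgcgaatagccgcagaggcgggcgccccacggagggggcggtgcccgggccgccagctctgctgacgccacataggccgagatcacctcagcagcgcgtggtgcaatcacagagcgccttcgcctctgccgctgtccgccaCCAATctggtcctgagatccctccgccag
Idi1: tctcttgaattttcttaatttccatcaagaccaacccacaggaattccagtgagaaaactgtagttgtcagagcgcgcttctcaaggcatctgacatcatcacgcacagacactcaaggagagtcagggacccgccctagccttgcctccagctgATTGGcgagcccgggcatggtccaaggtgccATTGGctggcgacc
Hmgcs1: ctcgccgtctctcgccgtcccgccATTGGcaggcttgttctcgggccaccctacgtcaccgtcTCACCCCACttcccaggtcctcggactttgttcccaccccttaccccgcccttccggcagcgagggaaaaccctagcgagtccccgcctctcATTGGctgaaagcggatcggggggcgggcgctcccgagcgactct

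RefSeq's promoter table for GRCm38.p6 matched 24 of the 32 genes, and windows from 250 bases before the start to 50 after it were searched on both strands. CCAAT was found in all 14 measured synthesis genes with an entry (and not in Acat2) and in 7 of 9 transport genes, while 37.4% of 32851 promoters held it. The sterol element core, in this exact form, occurred upstream of Hmgcs1 and Stard3, and in 1.24% of all promoters. The E-box occurred upstream of Dhcr7, Hsd17b7, Sc5d and Abca1, and in 7.15% of all promoters. A carbohydrate response element in its strict form, a pair of exact E-boxes at its usual spacing, overlaps the E-box by construction. It was found in 0 of the 32851 promoters, so this search could not tell members from other genes. The exact direct repeat that LXR binds (DR4) was found in 0.0152% of promoters and in no member. These are letter matches only, and looser forms of the motifs were not searched, so a gene without a match may still hold such an element. Fdps, Fdft1, Sqle, Stard4, Abcg1, Soat2, Npc1 and Scarb1 had no entry.

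Synthesis RNA was lower along most of the pathway in total ChREBP KO. Of the 17 synthesis genes, 13 fell, 1 rose and 3 were not called at a limma adjusted p of 0.05. Across all genes, 21.1% were called lower and 22.9% higher in this comparison. The median log2 fold change of the 17 genes was -1.16, against 0.01 over all genes, and 11 of them fell at least 2-fold. All 8 total ChREBP KO arrays were below all 8 WT arrays for 12 of the 17, a pattern that 8.42% of all genes showed. The falls extended over every segment of the route: 4 of the 5 genes from Hmgcs1 to Idi1, Fdps of the 2 prenyl diphosphate synthases, all 3 genes from squalene synthase to lanosterol, and 5 of the 7 genes from lanosterol to cholesterol.

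**Figure D1:**
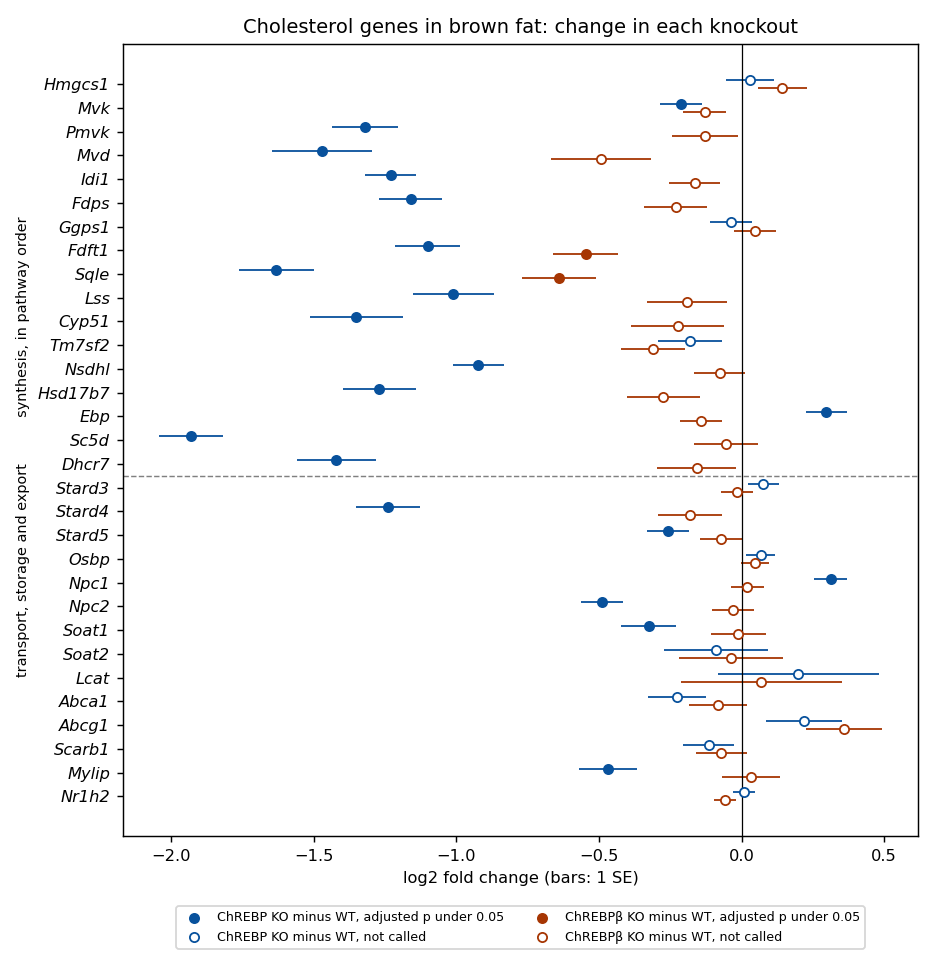
Log2 fold change (x axis) of the 31 measured genes, KO minus WT, in total ChREBP KO (blue) and ChREBPβ KO (brown), as points with bars of 1 SE and 8 arrays a group. Filled points passed an adjusted p of 0.05 in limma. In total ChREBP KO 13 of 17 synthesis genes lie to the left as filled points, and in ChREBPβ KO only Fdft1 and Sqle do.

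Sc5d, the desaturase that acts late on the sterol ring, fell furthest. Its probe (mm9 chr9:42062857-42062916) had a lowest, median and highest log2 value of 13.91, 14.16 and 14.27 in WT and 11.88, 12.21 and 12.59 in total ChREBP KO. The groups did not overlap, and the change was -1.93 ± 0.11 (SE), a 3.81-fold fall (limma adjusted p = 2.27e-15; exact permutation p = 0.000155, the smallest that 8 against 8 arrays can give). A further probe of Sc5d fell by 2.69 on the log2 scale.

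Sqle encodes squalene epoxidase, the first oxygen-requiring step and a rate-controlling one. It read 12.37, 12.60 and 12.88 (lowest, median, highest) in WT and 10.75, 10.87 and 11.39 in total ChREBP KO (mm9 chr15:59162688-59162747). Every KO array was below every WT array, and the change was -1.63 ± 0.13, or 3.09-fold (limma adjusted p = 5.49e-12). Cyp51, the lanosterol demethylase, read 11.70, 12.25 and 12.27 in WT and 10.46, 10.74 and 11.07 in KO, again without overlap. Its change was -1.35 ± 0.16 (limma adjusted p = 4.33e-08).

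Mvd, which decarboxylates mevalonate diphosphate, read 10.32, 10.84 and 11.28 in WT and 8.88, 9.34 and 9.78 in total ChREBP KO. Its fall was 2.77-fold (log2 -1.47 ± 0.18, limma adjusted p = 2.94e-08). Pmvk, the kinase just before it, read 15.60, 15.74 and 16.02 in WT and 14.19, 14.41 and 14.90 in KO, a change of -1.32 ± 0.12 (limma adjusted p = 4.71e-11). For neither gene did the groups overlap. Dhcr7, the reductase of the last step, read 9.9998, 10.36 and 10.90 in WT and 8.45, 8.98 and 9.30 in KO. That was a change of -1.42 ± 0.14 (limma adjusted p = 4.44e-10), also with no overlap. Each of Sqle, Cyp51, Mvd, Pmvk and Dhcr7 reached the smallest exact permutation p that 8 arrays a group allow.

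The other falls were of similar size. Hsd17b7, a sterol ketoreductase, changed by -1.27, Idi1, the isomerase of isopentenyl diphosphate, by -1.23, and Fdps, which makes farnesyl diphosphate, by -1.16. Fdft1 (squalene synthase) changed by -1.1, Lss, which closes the rings to lanosterol, by -1.01, and Nsdhl, a sterol decarboxylating dehydrogenase, by -0.92. For all 6, the 8 KO arrays lay below the 8 WT arrays. Fdft1, at the first step that leads only to sterols, read 12.91, 13.00 and 13.29 (lowest, median, highest) in WT and 11.52, 11.98 and 12.23 in KO (limma adjusted p = 1.36e-09). Lss read 12.12, 12.18 and 12.80 in WT and 10.89, 11.29 and 11.80 in KO (limma adjusted p = 5.66e-07). The WT arrays of Lss spread over a wider range than those of Fdft1. Idi1 read 13.03, 13.34 and 13.55 in WT and 11.92, 12.01 and 12.46 in KO, and Fdps 14.95, 15.23 and 15.41 against 13.76, 14.02 and 14.50. Hsd17b7 read 11.49, 11.64 and 11.87 against 10.25, 10.38 and 10.58, and Nsdhl 11.89, 12.25 and 12.34 against 11.08, 11.26 and 11.70. In both pairs the lowest WT array stood above the highest KO array. Within each of the 4 wash batches named in the labels, the difference of means had the same sign for all 12 genes whose groups did not overlap.

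Early and isolated steps stood apart from this. Hmgcs1, the cytosolic synthase that commits acetyl units to mevalonate, read 14.77, 14.97 and 15.19 in WT and 14.85, 14.99 and 15.17 in total ChREBP KO, a difference of 0.03 ± 0.09 (limma adjusted p = 0.815). The groups covered nearly the same range. Both Hmgcs1 probes are placed by the files on a part of mm9 chromosome 13 without a fixed position (13_random), and the second probe differed by -0.12 ± 0.24. Tm7sf2, a sterol reductase, differed by -0.18 ± 0.11 and was not called. Mvk, mevalonate kinase, read 12.35, 12.68 and 12.81 in WT and 12.13, 12.47 and 12.69 in KO. These groups overlapped and the change was -0.21 ± 0.07 (limma adjusted p = 0.0191; exact permutation p = 0.0303). A second Mvk probe changed by -0.04 and was not called, and without total ChREBP KO replicate 7 the first lost its call.

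Ebp was the one synthesis gene that rose in total ChREBP KO. It encodes the isomerase that shifts the ring double bond before Sc5d and Dhcr7 act. Its values were 12.58, 12.76 and 13.03 in WT and 12.85, 13.06 and 13.24 in KO, with overlap. The change was 0.30 ± 0.07 (limma adjusted p = 0.00125; exact permutation p = 0.00171), and a second probe rose by 0.21. Within wash batch 2 the difference was -0.02.

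**Figure D2:**
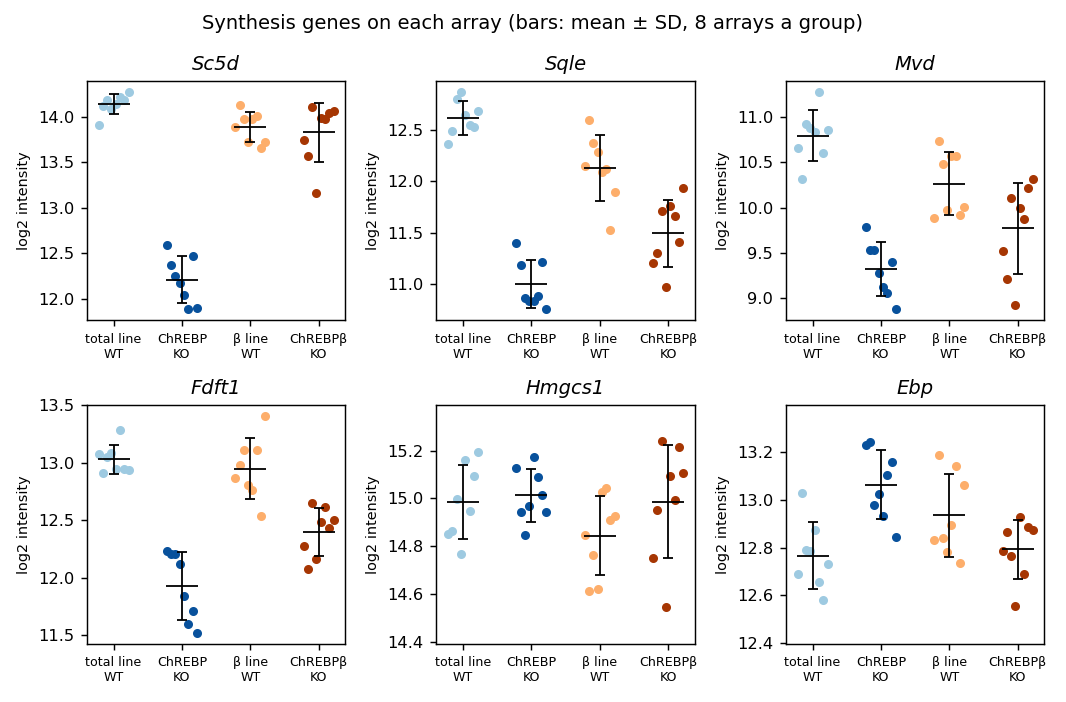
Log2 intensity (y axis) of 6 synthesis genes on each of the 32 arrays, by group (x axis), with mean ± SD over 8 arrays as bars; each panel has its own scale and none starts at 0. In Sc5d, Sqle, Mvd and Fdft1 the total ChREBP KO arrays lie below all WT arrays of that line, while Hmgcs1 overlaps and Ebp lies somewhat higher.

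Separate probes of one transcript mostly gave the same direction. Cyp51 and Fdft1 each had a probe of 60 bases that spans an intron, so that it reads spliced RNA, and these are printed because they read another stretch of the transcript than the brighter probe. The Cyp51 probe covers mm9 chr5:4092033-4092439 (minus strand) and the Fdft1 probe chr14:63765750-63769990 (minus strand).
Cyp51 probe: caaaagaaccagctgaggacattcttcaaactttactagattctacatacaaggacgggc
Fdft1 probe: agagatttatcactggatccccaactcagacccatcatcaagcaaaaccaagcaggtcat

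In total ChREBP KO, the intron-spanning Cyp51 probe fell by 1.38 on the log2 scale and the brighter one by 1.35. For Fdft1 the falls were 1.19 and 1.1. Both probes of Cyp51 and both of Fdft1 passed the limma test. Lss, with 3 probes, fell by 0.99, 1.01 and 1.73 on that scale.

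The probes of Ggps1 differed in their calls. This enzyme makes geranylgeranyl diphosphate, which leaves the sterol route for protein prenylation. Its brightest probe read 9.65, 9.88 and 9.98 in WT and 9.53, 9.81 and 10.02 in total ChREBP KO, a difference of -0.04 ± 0.07 that was not called. Of its 5 other probes, 3 were called lower, by 0.20, 0.38 and 0.49 in size, and 2 were not called and differed by 0.08 and 0.19. The 3 lower probes lie at mm9 chr13:14142964-14144288 and the brightest at chr13:14144710-14144769. Which transcripts of Ggps1 each probe reads was not tested.

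**Figure D3:**
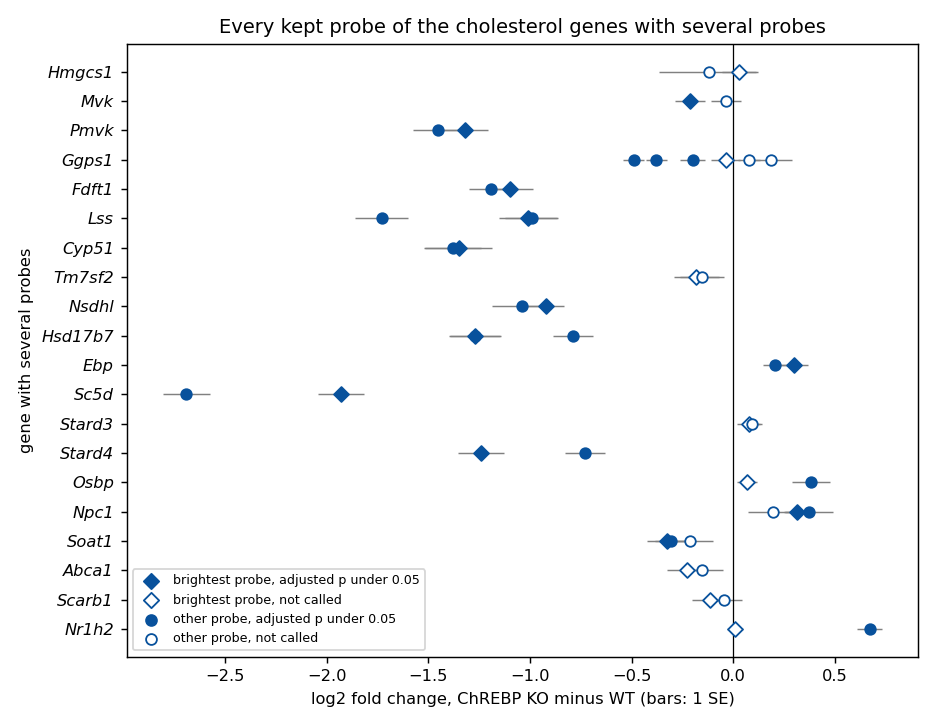
Log2 fold change in total ChREBP KO minus WT (x axis, bars of 1 SE) of every kept probe of the 20 genes with several probes (y axis). Diamonds are brightest probes, circles the others, and filled symbols passed an adjusted p of 0.05. The symbols of a gene mostly lie on one side of 0, whereas Mvk, Ggps1, Osbp, Npc1, Soat1 and Nr1h2 have both called and uncalled probes.

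Transport, storage and export genes moved less in total ChREBP KO. Of 14, 5 fell, 1 rose and 8 were not called. The share called lower (35.7%) stands beside the 21.1% of all genes, and the median log2 fold change was -0.10. The genes inside cells accounted for 4 of the 6 calls, and none of the 3 export and exchange genes was called.

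Stard4, a soluble carrier that moves cholesterol between membranes, fell by 1.24 ± 0.11 on the log2 scale (limma adjusted p = 7.77e-11) and was the transport gene with the largest change. Its values were 9.24, 9.35 and 9.62 in WT and 8.07, 8.13 and 8.42 in KO, so the groups did not overlap. A second, dimmer probe fell by 0.73. Stard5, a related sterol carrier, read 8.76, 9.07 and 9.14 in WT and 8.63, 8.75 and 8.87 in KO. Those groups overlapped and the change was -0.26 ± 0.07 (limma adjusted p = 0.00515; exact permutation p = 0.00264). Its call was lost with the slide as a fixed block, and within wash batch 2 the difference was 0.09. Stard3, a late endosomal tether, differed by 0.08 ± 0.05 and was not called.

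The Niemann-Pick proteins, which pass cholesterol out of lysosomes one to the other, changed in opposite directions. Npc2, the soluble partner, fell from 14.06, 14.26 and 14.54 (lowest, median, highest) in WT to 13.55, 13.84 and 13.89 in KO with no overlap, a change of -0.49 ± 0.07 (limma adjusted p = 2e-06). Npc1, the membrane partner, rose from 11.11, 11.14 and 11.36 to 11.32, 11.50 and 11.67 with overlap, a change of 0.31 ± 0.06 (limma adjusted p = 3.41e-05; exact permutation p = 0.000466). Another Npc1 probe rose by 0.37 and a further one differed by 0.19 without a call.

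Among the esterifying enzymes, Soat1, which stores cholesterol as esters, fell by 0.33 ± 0.10 on the log2 scale (limma adjusted p = 0.00625). It read 6.31, 6.96 and 7.24 in WT and 6.43, 6.52 and 6.74 in KO. The KO values lay inside the WT range. Another Soat1 probe was not called. Within wash batch 3 the difference was 0.06, and the call was lost with the slide as a fixed block. Soat2 differed by -0.09 ± 0.18 and Lcat, the plasma esterifying enzyme, by 0.20 ± 0.28. Neither was called.

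Of the export genes, Abca1, which loads cholesterol onto apolipoproteins, read 10.86, 11.04 and 11.32 in WT and 10.56, 10.78 and 11.26 in total ChREBP KO. The difference was -0.23 ± 0.10 (limma adjusted p = 0.069). Abcg1, the pump that passes cholesterol to lipoprotein particles, differed by 0.22 ± 0.13, and Scarb1, their exchange receptor, by -0.12 ± 0.09. For all 3 genes KO and WT arrays overlapped. Mylip fell by 0.47 ± 0.10 (limma adjusted p = 0.000337), with 1 KO array, replicate 7, among the WT values.

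Osbp, an oxysterol-binding lipid exchanger, and Nr1h2, which encodes LXRβ, had probes that differed. The brightest Osbp probe read 9.63, 9.65 and 9.73 in WT and 9.63, 9.69 and 9.91 in KO (0.07 ± 0.05, not called), while a dimmer one rose by 0.38 ± 0.09 (limma adjusted p = 0.00115). The brightest Nr1h2 probe read 12.93, 12.99 and 13.05 in WT and 12.81, 13.01 and 13.13 in KO, a difference of 0.01 ± 0.04. A dimmer Nr1h2 probe, at mm9 chr7:51807934-51808069, read 7.55 to 7.78 in WT and 8.07 to 8.58 in KO without overlap. It rose by 0.67 ± 0.06 (limma adjusted p = 2.3e-10).

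Macrophage markers were mostly lower in total ChREBP KO, and of the 14 transport genes 5 were called lower and 1 higher. Mrc1, a mannose receptor, changed by -1.04, Adgre1 by -0.80, Lyz2 by -0.76, Cd68 by -0.59 and Csf1r by -0.53 in total ChREBP KO, all called, and Cd14 by -0.21, not called. Soat1 and Npc2, both called lower, and Abca1, not called, are expressed in macrophages too. Npc1 (0.31, called) and Abcg1 (0.22, not called) had values above 0. In whole tissue, fewer cells of a type and less RNA per cell cannot be told apart, and the part of macrophages in these results was not tested. With muscle and liver marker levels as covariates, 8 transport genes were called in total ChREBP KO in place of 6, and the same number of synthesis genes, 13, was called lower.

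**Figure D4:**
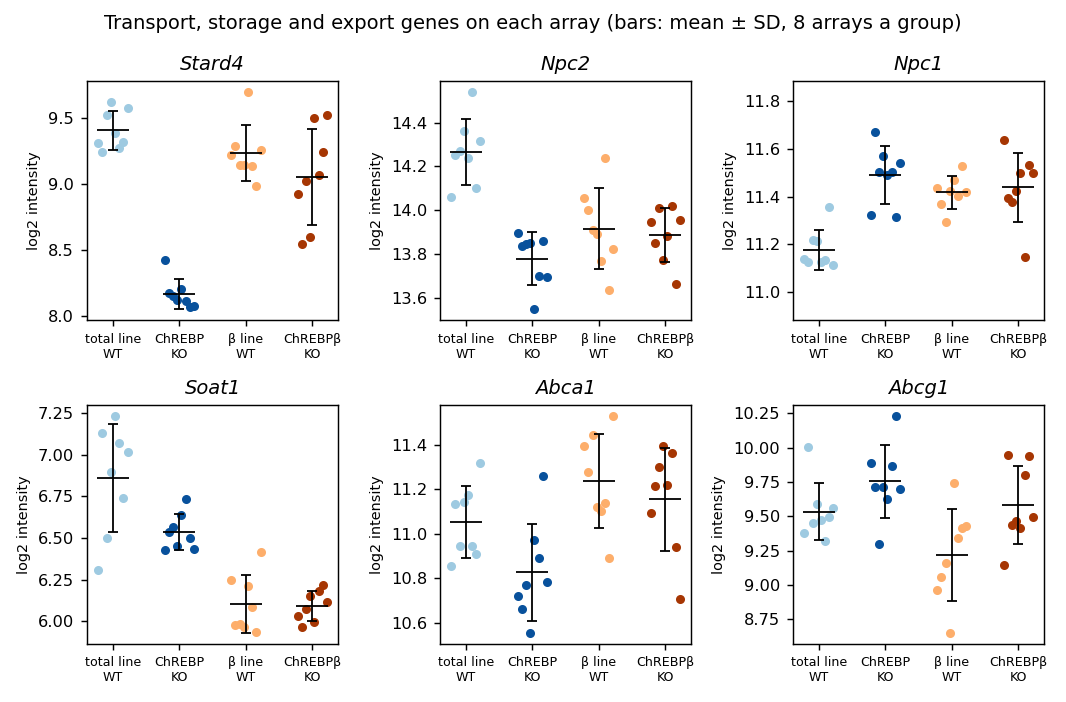
Log2 intensity (y axis) of 6 transport, storage and export genes on each of the 32 arrays, by group (x axis), with mean ± SD over 8 arrays as bars; each panel has its own scale and none starts at 0. Stard4 and Npc2 are lower in total ChREBP KO without overlap, Npc1 is higher, and Soat1, Abca1 and Abcg1 overlap between KO and WT.

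ChREBPβ KO changed 2 of the 31 genes, both lower and both at squalene. Across all genes 1.33% were called lower and 1.37% higher in this comparison. Sqle read 11.53, 12.14 and 12.60 in WT and 10.97, 11.54 and 11.93 in ChREBPβ KO, a change of -0.64 ± 0.13 (limma adjusted p = 0.00396; exact permutation p = 0.00218). Fdft1 read 12.54, 12.92 and 13.41 in WT and 12.08, 12.46 and 12.65 in KO, a change of -0.55 ± 0.11 (limma adjusted p = 0.00446; exact permutation p = 0.000466). In both genes the groups overlapped, and all 8 KO arrays lay below the WT mean. The intron-spanning Fdft1 probe fell by 0.55 as well.

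Within wash batches, which held 1 to 3 arrays a group, the Sqle difference was -1.52, -0.77, 0.17 and -0.38, and that of Fdft1 was -0.76, -0.56, -0.06 and -0.48. Both calls were lost with the slide as a fixed block, with changes of -0.50 for Sqle and -0.56 for Fdft1. They were lost too on the arrays low in liver markers, where 2 WT and 3 KO arrays of the β line remained, with changes of -0.93 and -0.47.

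No other member passed the test in ChREBPβ KO, although 15 of the 17 synthesis genes had a log2 fold change below 0, with a median of -0.17, against 51.1% of all genes below 0 and a median of 0.00. In wash batch 3, with 3 KO arrays and 1 WT array, 16 of the 17 lay above 0; in batches 1, 2 and 4, 16, 15 and 11 lay below. Of the uncalled members, Mvd lay lowest at -0.49 ± 0.18 (limma adjusted p = 0.144): 9.89, 10.25 and 10.73 in WT and 8.93, 9.93 and 10.32 in KO, with overlap. Tm7sf2 differed by -0.31 ± 0.11 and Abcg1 by 0.36 ± 0.13. Sc5d, with the largest fall in total ChREBP KO, read 13.66, 13.93 and 14.13 in WT and 13.16, 13.98 and 14.11 in ChREBPβ KO, a difference of -0.05 ± 0.11. Among the genes that fell most in total ChREBP KO, Dhcr7 read 9.78, 10.13 and 10.51 in WT of the β line and 9.55, 10.01 and 10.28 in ChREBPβ KO, a difference of -0.16 ± 0.14. Pmvk read 14.78, 15.22 and 15.47 against 14.66, 15.13 and 15.61, and Cyp51 10.85, 11.46 and 11.83 against 10.49, 11.33 and 11.94. For Pmvk and Cyp51 the highest KO array was above the highest WT array. Lss differed by -0.19 ± 0.14, Hsd17b7 by -0.28 ± 0.13, Fdps by -0.23 ± 0.11 and Idi1 by -0.17 ± 0.09, none of them called. Hmgcs1 (0.14 ± 0.09) and Ggps1 (0.05 ± 0.07) were the 2 synthesis genes with a value above 0.

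For all 14 transport genes KO and WT arrays of the β line overlapped. Of all genes, only 0.204% lay lower and 0.228% higher without overlap in this comparison. Stard4 read 8.98, 9.18 and 9.70 in WT and 8.54, 9.04 and 9.52 in ChREBPβ KO, a difference of -0.18 ± 0.11. Npc2 differed by -0.03 ± 0.07, Npc1 by 0.02 ± 0.06 and Soat1 by -0.01 ± 0.10. These 3 differences were smaller than their errors. Abcg1 read 8.65, 9.25 and 9.74 in WT and 9.14, 9.48 and 9.95 in KO, with 7 of 8 KO arrays above the WT mean, and its adjusted p was 0.168 in limma. The 14 transport genes had a median of -0.02, and 0 were called (1 at an unadjusted limma p under 0.05).

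The difference between the effects of the 2 deletions was tested in the same limma fit, as the change in ChREBPβ KO minus that in total ChREBP KO. It was called for 17 of 31 members. Of all genes, 12.2% were called with a positive and 13.0% with a negative difference. A positive difference, here a larger fall in total ChREBP KO, was called for 12 synthesis genes and for 3 transport genes, Stard4, Npc2 and Mylip. The 12 are those whose total KO and WT arrays did not overlap. Both results use the same total-line values, so this match is not independent. The difference was largest for Sc5d (1.88 ± 0.16, limma adjusted p = 8.15e-11), Dhcr7 (1.26 ± 0.20) and Pmvk (1.19 ± 0.16). For Sqle it was 0.99 ± 0.18 and for Fdft1 0.55 ± 0.16, so these 2 genes also changed more in total ChREBP KO. Ebp (-0.44 ± 0.10) and Npc1 (-0.29 ± 0.08) differed the other way. On the arrays low in liver markers, 6 of 31 members were called, with 2 to 6 arrays a group.

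The WT groups of the 2 lines differed as well, which bears on any comparison across lines. Of all genes, 14.1% were called lower and 24.8% higher in WT of the β line. Among synthesis genes, 7 were lower and 1 was higher, and among transport genes 2 were lower and 3 higher. Idi1 (-0.66 ± 0.09), Fdps (-0.61 ± 0.11) and Pmvk (-0.57 ± 0.12) were lower with no overlap, as were 3.8% of all genes. Cyp51, Mvd, Sqle and Hsd17b7 were lower by 0.68, 0.53, 0.49 and 0.47 in size. Ggps1 was higher by 0.40 ± 0.07 without overlap, as were 5.66% of all genes. Soat1 was lower by 0.76 in size and Npc2 by 0.35, and Npc1, Osbp and Nr1h2 were higher by 0.24, 0.14 and 0.10. The Nr1h2 call (limma adjusted p = 0.0449) was made in 25 of 47 alternatives and that of Osbp in 39 of 47.

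In this comparison 8 of 8 muscle markers were called lower in the β line (median log2 difference -6.24) and 5 of 6 macrophage markers as well. With muscle and liver marker levels as covariates, 3 members were called between the WT groups in place of 13. The muscle marker levels of these 2 groups, 12.5 to 16.2 and 5.49 to 11.9, did not overlap, so this covariate and the line cannot be told apart. Several genes gave opposite signs on different probes here. The Mvk probes differed by 0.10 (not called) and -0.27 (called), those of Ebp by 0.17 (not called) and -0.21 (called), and the Nr1h2 probes by 0.10 and -0.20, both called. Lss gave -0.44 (called), -0.25 and 0.22, and Osbp 0.14 (called) and -0.02. The second Osbp probe read 6.27, 6.70 and 6.83 in WT of the total line and 6.38, 6.63 and 6.81 in that of the β line.

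Other genes that act on the pathway were read from a separate list of 34 measured genes. In total ChREBP KO 14 were lower (41.2%) and 5 higher (14.7%), against 21.1% lower and 22.9% higher of all genes, with a median log2 fold change of -0.06. All 3 genes that supply acetyl-CoA to the cytosol fell at least 2-fold: Acly, the citrate lyase (-3.58 ± 0.09), Slc25a1, the mitochondrial citrate carrier (-2.42 ± 0.13), and Acss2, the acetyl-CoA synthetase (-1.39 ± 0.15). Of 7 genes of SREBP control, 5 were lower and none higher. Srebf1, which encodes SREBP-1, changed by -1.05 ± 0.10, whereas Srebf2, which encodes SREBP-2 and is named after its value was seen, differed by -0.03 ± 0.06 and was not called. Among 10 further sterol movers, 3 were higher and 3 lower, and Nceh1, which hydrolyses cholesterol esters, rose by 1.26 ± 0.20. Of the 4 LXR-related genes 1 was higher and 1 lower, of the 6 genes of the isoprenoid branch likewise 1 and 1, and of the 4 oxysterol enzymes 1 was lower. In these 4 groups the shares called lower ran from 16.7% to 30.0%, near that of all genes. In ChREBPβ KO, Slc25a1 was the one gene of this list that was called, at -0.71 (limma adjusted p = 0.00204).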

How the data were processed

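RNA from brown adipose tissue of 32 mice was measured on Agilent 1-colour arrays. Per the labels, the authors used Agilent Feature Extraction 10.10.1.1 and limma; they deposited scanner files, whose median intensity per spot was used here, and a table of quantile-normalised log2 values. Of 59305 non-control spots, 39985 were kept, those well above background on at least 26 of 32 arrays or on 6 of the 8 of a group. Intensities were log2 transformed, quantile normalised between arrays and reduced to the median per probe (37306 probes). The mean absolute difference from the deposited values was 0.00298 on the log2 scale. Groups came from the labels.

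A linear model in limma 3.58.1 (R 4.3.3) took every array and the 4 groups, without other terms. P-values were adjusted by Benjamini-Hochberg over all probes, and a gene was called at an adjusted p under 0.05 on its brightest probe. For described genes, two-sided exact permutation tests used all 12870 ways to divide 16 arrays. Every member is named. The 6 lowest and 4 highest called in total ChREBP KO, those called in ChREBPβ KO and those whose probes disagree are given with their values per group; genes of other pathway lists are named from a called 2-fold change on, apart from Srebf2. Marker genes are named for brown fat and macrophages; those of muscle and liver are given as ranges or counts. Members and lists were chosen with earlier results of these data known. The files carry mm9 probe positions; no genome of that build was used, so exons and untranslated regions were not assigned.

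On simulated arrays (37306 probes), a small set of probes was raised in total ChREBP KO, with independent noise. The model recovered 83% of probes changed by 0.5 and 98% of those changed by 1 on the log2 scale. In the real arrays far more genes were called, in both directions, and tissue markers were uneven, so these rates need not hold there. Per array, 64.4% to 71.1% of spots were well above background, and 0 spots were saturated. Precision is limited by the 8 arrays a group. Alternatives covered signal, normalisation, filter, wash batch, slide (15 in all), replicate block, arrays left out, marker covariates, probe choice and threshold. A subset of arrays with a liver marker mean under 7.5 was chosen after seeing the data.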

Additional observations from a re-analysis of the deposited data

Results flagged for a closer look

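Each deletion was carried by its own line, so effects of deletion and line cannot be told apart here. Of all genes, 12.2% were called with a positive and 13.0% with a negative difference between the 2 KO effects. Of the 31 members, 17 were called in a limma test of this difference (change in ChREBPβ KO minus change in total ChREBP KO, log2 scale). Among synthesis genes it was 1.88 for Sc5d, 1.26 for Dhcr7, 1.19 for Pmvk, 1.13 for Cyp51, 1.06 for Idi1, 0.992 for Hsd17b7, 0.986 for Sqle, 0.976 for Mvd, 0.928 for Fdps, 0.845 for Nsdhl, 0.82 for Lss, 0.552 for Fdft1 and -0.438 for Ebp. Among transport genes it was 1.06 for Stard4, 0.501 for Mylip, 0.459 for Npc2 and -0.292 for Npc1.

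In 7 of 124 groups of 8 arrays, 1 array stood apart from the rest by Dixon's criterion, which chance alone meets in about 1 group in 20. Each of these was the highest of its group. Total ChREBP KO replicate 1 read 8.422 for Stard4 (the next array 8.201) and 12.46 for Idi1 (next 12.13), and replicate 7 read 10.22 for Mylip (next 9.691). WT of the total line read 10.004 for Abcg1 in replicate 2 (next 9.59), 11.36 for Npc1 in replicate 7 (next 11.22) and 13.29 for Fdft1 in replicate 6 (next 13.08). WT of the β line replicate 5 read 9.697 for Stard4 (next 9.287).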

How the results depend on the processing

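Leaving out each array in turn gave 20 to 21 members called in total ChREBP KO (20 with all arrays), 2 in ChREBPβ KO, 17 to 18 for the difference between the deletions and 12 to 15 between the WT groups. Of the other alternatives, a threshold of 1.5-fold beside the adjusted p left 13 members in total ChREBP KO, 1 of them a transport gene, 1 in ChREBPβ KO and 4 between the WT groups. The count in ChREBPβ KO was 1 when a probe had to exceed background on every array, a filter the Sqle probe did not pass, and 0 with the slide as a fixed block. With muscle and liver covariates, 3 members were called between the WT groups, whose muscle marker levels do not overlap, so that covariate and line cannot be told apart. On the arrays low in liver markers, with 2 to 6 arrays a group, 0 were called in ChREBPβ KO, 6 for the difference (5 of them synthesis genes) and 6 between the WT groups. Synthesis genes called lower in total ChREBP KO numbered 11 to 13 under every alternative run. Within 1 wash batch, 5 called changes had the other sign: Mvk (0.0708, batch 2), Ebp (-0.0155, batch 2), Stard5 (0.0945, batch 2) and Soat1 (0.0632, batch 3) in total ChREBP KO, and Sqle (0.171, batch 3) in ChREBPβ KO. The mean of all Nr1h2 probes gave -0.0521 between the WT groups against 0.10 for the brightest. The causes were not tested. Whether replicate numbers pair the mice could not be settled by array correlations, since liver marker levels were also uneven within groups. Correlations of same-numbered arrays ran from -0.304 to 0.0801 in the total line and from -0.196 to 0.532 in the β line. Above 0.1 were 0 of 8 pairs in the total line and 6 of 8 in the β line. With the replicate block, 20, 2, 17 and 15 members were called in total ChREBP KO, in ChREBPβ KO, for the difference and between the WT groups, and no array correlated best with its own number in either line (0 of 8). No scaling alternative moved the median of all probes by over 0.1.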
